A study of Macaca mulatta with 10 samples.

Results

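The genes described here are 10 receptors of natural killer (NK) cells, KLRB1, KLRC1, KLRD1, KLRF1, KLRG1, KLRK1, NCR3, CD244, CD160 and FCGR3A, chosen by gene symbol from the authors' table of normalized log2 values, where all 10 were found among 18622 rows. Each row is 1 gene symbol, and each column is the lymph node of 1 male rhesus macaque. The unstable group holds 5 animals kept under unstable social conditions, with age labels from 5.61 to 6.84, and the stable group holds 5 animals kept under stable social conditions, with age labels from 5.73 to 5.87. The labels state neither the unit of age nor how social conditions were varied. RNA was hybridised to Illumina Human Ref 8 bead arrays, whose probes were designed on human transcripts, so a weak signal can also come from a macaque transcript that the probe binds poorly.

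NK cells are lymphocytes that kill infected or transformed cells without prior immunisation, and they decide by weighing signals from activating and inhibitory receptors. KLRD1 (CD94) pairs with KLRC1 (NKG2A) to form an inhibitory receptor for the class I molecule HLA-E, while KLRK1 (NKG2D), NCR3 (NKp30) and CD244 (2B4) can trigger killing, and FCGR3A (CD16) binds antibody on coated target cells. Most of these receptors are also found on subsets of CD8 T cells, gamma delta T cells or, for FCGR3A, on monocytes and macrophages, and most resting lymph nodes hold few NK cells of the CD16 type. In a piece of tissue, fewer cells that carry a receptor and less of its RNA per cell cannot be told apart. In the T2T-MMU8v2.0 macaque annotation 9 of the 10 genes were found by symbol, and FCGR3A as a synonym of FCGR3. The 6 KLR genes lie on 1 chromosome there, with KLRD1 next to KLRK1, with 0 protein-coding genes between them, and with 4 between KLRB1 and KLRF1.

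The arrays were alike in signal, with median probe intensities of 104 to 119. The labels name no slide, and slides were numbered here by the first part of the array identifiers. Slide 1 carried unstable animals 1 to 3, whose age labels of 6.7 to 6.84 are the highest, together with stable animal 5. Slide 3 carried the other two unstable animals and slide 2 the other four stable animals. With both groups on slide 1 alone, slide, age label and social condition are largely tied together. The lymph node label was borne out by T cell markers (13 of 14 above background on at least 3 arrays), B cell markers (7 of 10) and stromal markers (11 of 13), among them CD3D, CD79B and the lymph node chemokine CCL21, which averaged 12.16, 12.34 and 13.04 log2 units in unstable animals and 12.18, 12.34 and 12.99 in stable animals. On each array, background was taken to end 3 SD above the mode of the log2 values, with the SD of the values below the mode, which put the threshold between 6.89 and 6.90 log2 units. MS4A1 (CD20), carried by most B cells, and the lysozyme gene LYZ, strongly expressed by macrophages, were above background on 0 of 10 arrays.

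Of the 10 receptors 4 were above background on at least 3 arrays, against 44.6% of all rows. KLRD1 was above it on all 10 arrays, as were 34.3% of all rows, NCR3 on 9, CD160 on 8 and KLRB1 on 5. The other 6, KLRC1, KLRF1, KLRG1, KLRK1, CD244 and FCGR3A, were above background on no array, so that their values carry no order, and the differences fitted to them describe signal under background and are not read as fold changes. With the threshold at 5 SD above the mode, 3 receptors were above it on at least 3 arrays, and KLRB1 was above it on 1. At 2 SD, KLRD1, NCR3 and CD160 were above it on 10 arrays, KLRB1 on 6, and KLRK1 and CD244 on 2 each. Of the 6 receptors under the threshold at 3 SD, KLRK1 and CD244 came closest, with highest values 0.06 and 0.07 log2 units under that of their array. FCGR3A lay farthest under it, 0.33 log2 units even on its best array. Probes for closely related genes, such as KLRC1 with its KLRC relatives and FCGR3A with FCGR3B, may not tell these apart. FCGR3B, which has its own row, read 6.88 to 7.07 and was above background on 9 arrays, and it was singled out after its values were seen. Because the macaque annotation gave FCGR3A as a synonym of FCGR3, either row may read that macaque gene. Which of them does was not tested, so the low FCGR3A row does not show that CD16 RNA was undetected.

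**Figure D1:**
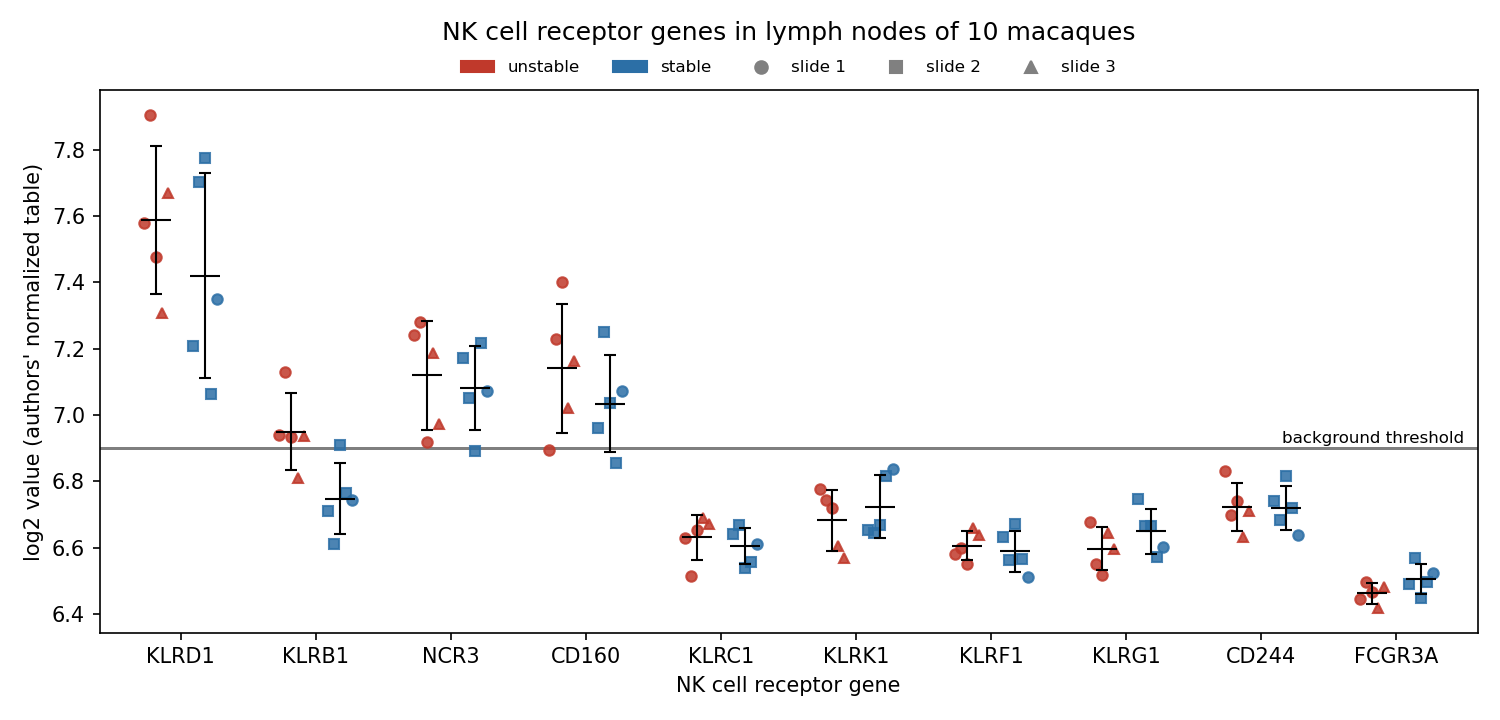
Normalized log2 values of the 10 receptor genes (vertical axis) in each animal, unstable in red and stable in blue, with marker shape for the slide, black bars for group mean and SD (n = 5 each) and a grey line for the background threshold. KLRD1 lies above the line in every animal, KLRB1, NCR3 and CD160 straddle it, and the remaining 6 genes lie under it.

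No receptor differed between unstable and stable animals at an adjusted p under 0.05. The fit was limma on all 18622 rows, which called 0% of them, and the adjusted p of the receptors lay between 0.93 and 0.997. At an unadjusted p under 0.05 limma found 1 of the 10, KLRB1, where it found 5.13% of all rows, 2.41% as higher and 2.73% as lower in unstable animals. Means were higher in unstable animals for 7 receptors and lower for 3, against 48.9% higher among all rows, and the median difference of the 10 was 0.022 log2 units against -0.0015 for all rows. For none of the 10 did the groups separate without overlap, which 0.838% of all rows did.

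KLRB1 (CD161), an inhibitory lectin-like receptor of NK cells and of memory and mucosal T cells, had the smallest p of the 10. Its log2 values were 6.94, 7.13, 6.93, 6.81 and 6.94 in unstable animals 1 to 5, and 6.71, 6.61, 6.91, 6.76 and 6.74 in stable animals 1 to 5. The groups overlapped through unstable animal 4 and stable animal 3, and the signal was above background in 4 unstable animals and 1 stable animal. KLRB1 thus counts as above background mostly through the group in which it is higher. The means were 6.95 ± 0.11 in unstable and 6.75 ± 0.11 in stable animals (SD, n = 5 each), a log2 difference of 0.20 (SE 0.065, 95% interval 0.057 to 0.35; limma adjusted p = 0.93). On the linear scale, with background light included, the probe read 119 to 156 in unstable animals and 97.4 to 124 in stable animals. The log2 difference was 0.53 with normexp background correction and quantile scaling, 0.26 within slide 1, and 0.13 without the 3 older unstable animals. Slide 1 holds 1 stable animal, so this and the other values within slide 1 are given without a test.

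KLRD1, the partner chain of KLRC1 (NKG2A), varied more between animals than between groups. Its log2 values were 7.58, 7.90, 7.48, 7.31 and 7.67 in unstable animals 1 to 5, and 7.21, 7.70, 7.78, 7.06 and 7.35 in stable animals 1 to 5. Unstable animal 2 was highest and stable animal 4 lowest, and stable animals 2 and 3 stood above 4 of the 5 unstable animals. The means were 7.59 ± 0.22 in unstable and 7.42 ± 0.31 in stable animals (SD, n = 5 each), a log2 difference of 0.17 (SE 0.15, 95% interval -0.17 to 0.50; limma adjusted p = 0.955). The difference was 0.078 without stable animal 4, 0.069 without the 3 older unstable animals, 0.30 within slide 1, and 0.29 with normexp and quantile scaling.

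The deposited KLRD1 row matched the averaged signal of 2 probes, on the log2 scale to within 0.0001 log2 units, and these probes disagreed in level. The probe ILMN_1797988 was above background on all 10 arrays, while ILMN_2386453 was above it on none and ranged from 6.47 to 6.64. The first probe alone read 8.15, 8.58, 8.01, 7.80 and 8.28 in unstable animals 1 to 5, and 7.67, 8.34, 8.45, 7.39 and 7.86 in stable animals 1 to 5. Its intensity before normalization ran from 239 in unstable animal 4 to 455 in unstable animal 2, and from 177 in stable animal 4 to 352 in stable animal 3. The spread between animals was therefore wider than the gene row shows, and the group difference of this probe was 0.22 (SE 0.21, 95% interval -0.26 to 0.70; limma adjusted p = 0.918 over 24526 probes). Each of the other 9 receptors equalled a single probe.

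**Figure D2:**
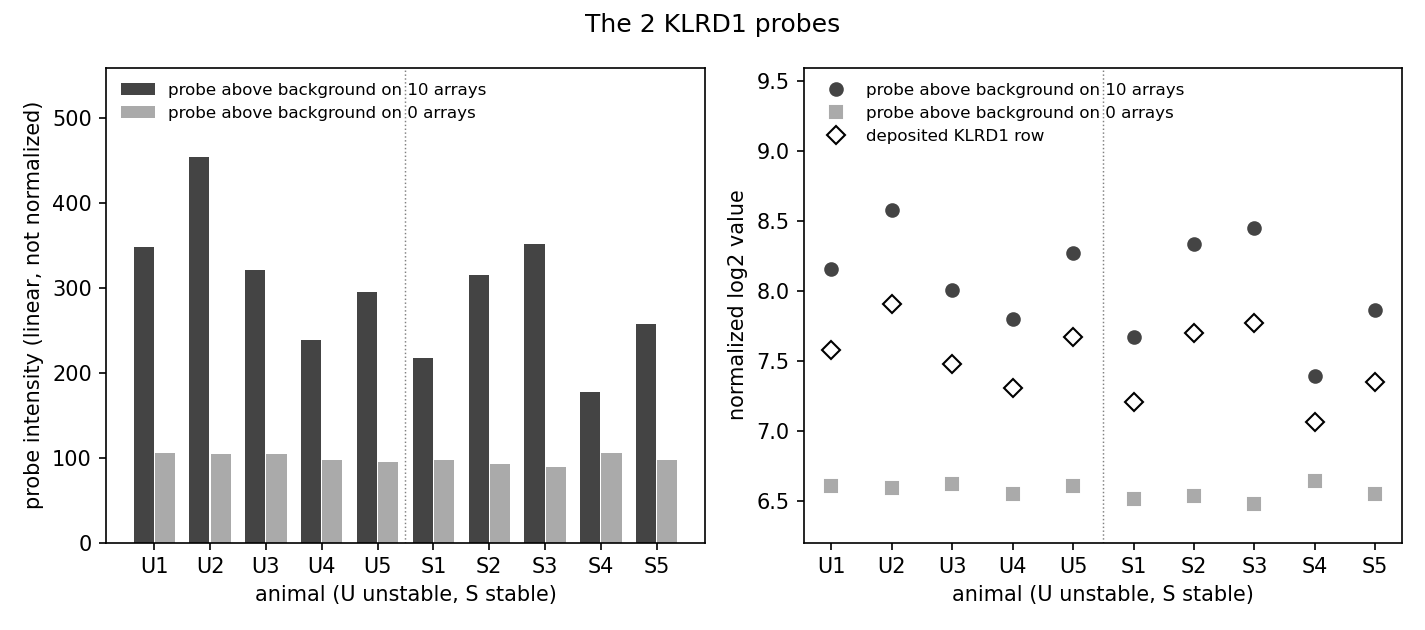
Intensity before normalization (left, linear axis from 0) and normalized log2 value (right) of the 2 KLRD1 probes in each animal, unstable 1 to 5 and then stable 1 to 5. The dark probe runs from 177 to 455 in intensity, the pale probe stays near 100 in every animal, and the open diamonds, the deposited gene row, lie between them.

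NCR3, an activating receptor of the immunoglobulin family, was close to equal in the groups. Its log2 values were 7.24, 7.28, 6.92, 7.19 and 6.97 in unstable animals 1 to 5, and 7.17, 7.05, 6.89, 7.22 and 7.07 in stable animals 1 to 5. The value of stable animal 3 was the only one under the threshold. The means were 7.12 ± 0.16 in unstable and 7.08 ± 0.13 in stable animals (SD, n = 5 each), and the log2 difference of 0.039 (SE 0.084) had a 95% interval from -0.15 to 0.23 (limma adjusted p = 0.986). The sign turned, to -0.0004 without the older unstable animals and to -0.0024 with age label as a covariate, and the difference was 0.074 within slide 1.

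CD160, a lipid-anchored receptor of cytotoxic NK and CD8 T cells that binds class I molecules and TNFRSF14, had its highest value in unstable animal 3. Its log2 values were 6.89, 7.23, 7.40, 7.02 and 7.16 in unstable animals 1 to 5, and 6.96, 7.25, 7.04, 6.85 and 7.07 in stable animals 1 to 5. Unstable animal 1 and stable animal 4 were under the threshold, and the ranges overlapped over most of their length. The means were 7.14 ± 0.19 in unstable and 7.03 ± 0.15 in stable animals (SD, n = 5 each), a log2 difference of 0.11 (SE 0.098, 95% interval -0.11 to 0.32; limma adjusted p = 0.955). With 1 animal left out it ran from 0.042, without unstable animal 3, to 0.17, without unstable animal 1. It was 0.058 without the older unstable animals, 0.10 within slide 1, and 0.21 with normexp and quantile scaling.

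The 4 receptors above background did not put the animals in 1 common order. Unstable animal 2 ranked first of 10 for KLRB1, KLRD1 and NCR3 and behind unstable animal 3 and stable animal 2 for CD160. Stable animal 4 was lowest for KLRD1 but above 7 of the other 9 animals for NCR3. Stable animal 3 was next to highest for KLRD1, while its NCR3 value was under background. Values under background are not ordered among themselves here and count only as lower than values above it. At the threshold of 3 SD only KLRD1 was above background on every array, so correlations between receptors, set for such genes alone, were not computed.

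Among the 6 receptors under background, log2 values ran from 6.42 to 6.84 over both groups. The inhibitory chain KLRC1 read 6.51 to 6.69 in unstable and 6.54 to 6.67 in stable animals. KLRG1, an inhibitory receptor for cadherins, read 6.52 to 6.68 in unstable and 6.57 to 6.75 in stable animals, and the activating receptor KLRF1 (NKp80) 6.55 to 6.66 and 6.51 to 6.67. For KLRK1 the values were 6.57 to 6.78 in unstable and 6.64 to 6.84 in stable animals, for CD244 they were 6.63 to 6.83 and 6.64 to 6.81, and for FCGR3A 6.42 to 6.50 and 6.45 to 6.57. All of these ranges overlapped between the groups, and the limma adjusted p was at least 0.945. A signal in this range does not show that the transcript was absent. KLRK1, under background in every animal, is the neighbour of KLRD1, above it in every animal.

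**Figure D3:**
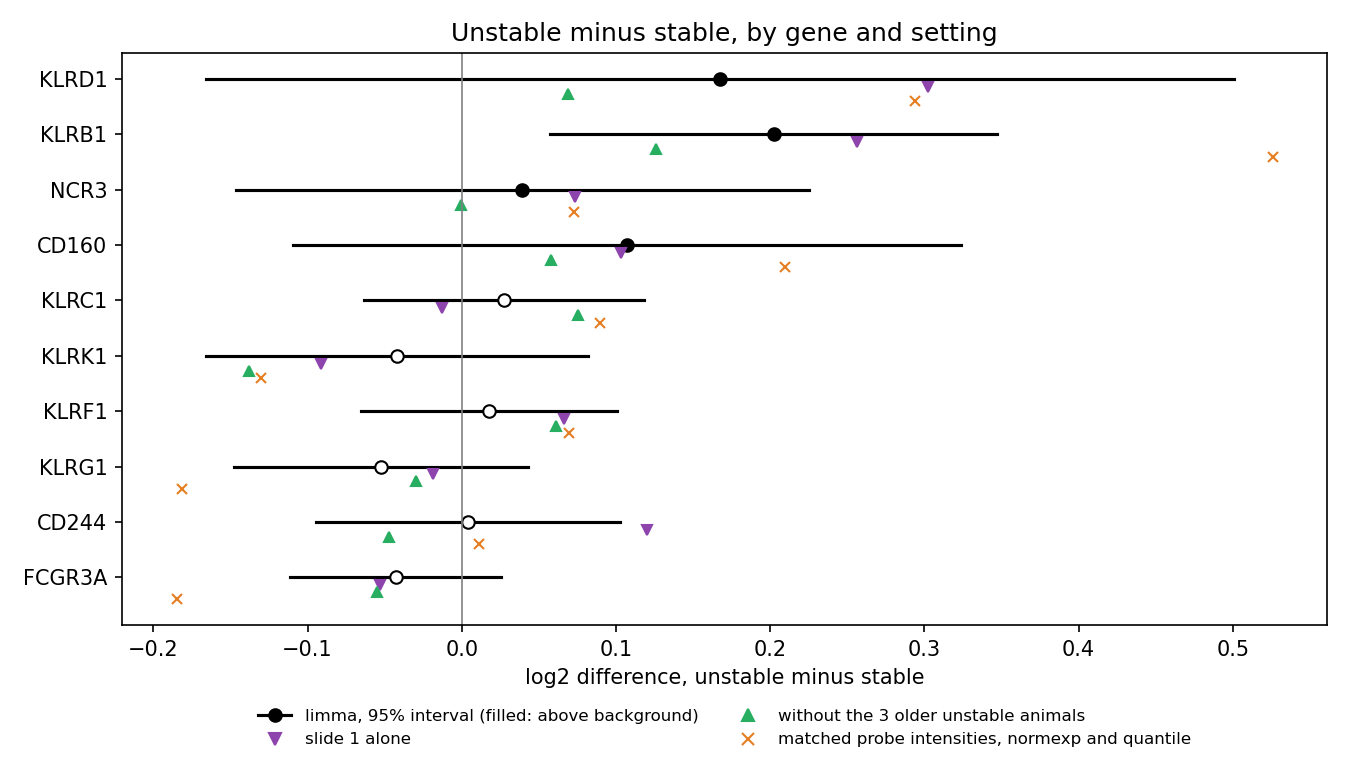
Log2 difference (horizontal axis), unstable minus stable, of each receptor with its 95% interval from limma (black, filled for genes above background on at least 3 arrays), together with that difference within slide 1, without the 3 older unstable animals, and after normexp and quantile scaling. Open symbols show receptors under background, whose differences carry no fold. Only the interval of KLRB1, from 0.057 to 0.35 before any adjustment for the number of genes, leaves out 0. KLRB1 was above background on 4 unstable arrays and 1 stable array, so its filled symbol rests mostly on the group in which it is higher.

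Other receptors of NK cells gave no clearer separation. Of 28 listed, 27 were measured and 9 were above background on at least 3 arrays. Means were higher in unstable animals for 14 and lower for 13, with a median difference of 0.0045 log2 units, and limma called 0. NCR1 (NKp46), a receptor largely restricted to NK cells, was just above background in 3 unstable animals and no stable animal, at 6.83 to 7.01 in unstable and 6.74 to 6.88 in stable animals. It is named here through the unstable arrays alone, so its difference of 0.078 log2 units is a description with no test. SLAMF7, a self-binding receptor of NK and plasma cells, read 6.76 to 6.93 in unstable and 6.83 to 7.09 in stable animals. It was above background in 1 unstable and 3 stable animals, so the filter that named it partly fixes its direction. Its difference of -0.081, which was 0.032 within slide 1, is likewise a description with no test. LAIR1, an inhibitory collagen receptor of most leukocytes, averaged 13.82 ± 0.13 in unstable and 13.88 ± 0.09 in stable animals (SD, n = 5 each). The only gene of this list with an unadjusted limma p under 0.05, against 5.13% of all rows, was KIR2DS4, which was under background on every array and is named after its values were seen.

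The ligands included the binding partner of the KLRD1 and KLRC1 pair. Of 24 listed ligands 21 were measured, 10 were above background on at least 3 arrays, 9 had higher and 12 lower means in unstable animals, and limma called 0. HLA-E read 10.86, 11.03, 10.72, 11.09 and 10.85 in unstable animals 1 to 5, and 11.32, 11.11, 11.36, 11.15 and 10.92 in stable animals 1 to 5. Its log2 difference was -0.26 (SE 0.093; limma adjusted p = 0.942), and -0.044 within slide 1, where the lowest stable value, that of animal 5, is the only stable one. B2M, the light chain of class I molecules, averaged 12.82 ± 0.06 in unstable and 12.94 ± 0.11 in stable animals (SD, n = 5 each), a difference of -0.13 that was -0.017 within slide 1. These 2 and CD48, the ligand of CD244, were the 3 ligands with an unadjusted limma p under 0.05, all lower, as were 2.73% of all rows. CD48 was under background on every array, as were CLEC2D, the ligand of KLRB1, and TNFRSF14. CDH1 (E-cadherin), a ligand of KLRG1, averaged 8.93 in unstable and 8.95 in stable animals, and BAT3, a ligand of NCR3, 8.36 in both groups. CD48, CLEC2D, TNFRSF14, CDH1 and BAT3 were singled out after their values were seen.

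The adaptors and kinases that carry receptor signals were nearly all measurable. Of 23 measured 19 were above background on at least 3 arrays, 6 had higher and 17 lower means in unstable animals, the median difference was -0.056 log2 units, and limma called 0. PTPN6 (SHP-1), the phosphatase recruited by inhibitory receptors, averaged 9.59 ± 0.16 in unstable and 9.85 ± 0.10 in stable animals (SD, n = 5 each), a difference of -0.26 (SE 0.078; limma adjusted p = 0.918). It read 9.59, 9.80, 9.69, 9.38 and 9.51 in unstable animals 1 to 5, against 9.76, 9.91, 9.94, 9.92 and 9.72 in stable animals 1 to 5. It was the only gene of this list with an unadjusted limma p under 0.05, against 5.13% of all rows, and its difference was -0.023 within slide 1 and -0.40 without the older unstable animals. The ubiquitin ligase CBL differed by -0.15 (SE 0.067), and by 0.028 within slide 1, and VAV1, an exchange factor that activating receptors use, by -0.14 (SE 0.075), and by -0.0075 within slide 1. HCST (DAP10), the adaptor of KLRK1, was above background on all 10 arrays while KLRK1 was on none, with means of 11.02 in unstable and 11.01 in stable animals, named after its values were seen.

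Cytotoxic effector genes, the granule proteins and death ligands that NK and CD8 T cells share, had higher means in unstable animals for 11 of 17 measured, with a median difference of 0.046 log2 units, and limma called 0. Granulysin (GNLY), an antimicrobial granule protein, read 7.65, 7.70, 8.10, 7.58 and 7.58 in unstable animals 1 to 5, and 7.19, 7.56, 7.71, 7.09 and 7.11 in stable animals 1 to 5. Its log2 difference of 0.39 (SE 0.14; limma adjusted p = 0.942) was 0.71 within slide 1 and 0.25 without the older unstable animals. GZMK, a granzyme of memory CD8 T cells and some NK cells, read 8.95, 9.83, 9.05, 8.85 and 9.56 in unstable animals 1 to 5, against 8.86, 8.85, 9.17, 8.89 and 8.28 in stable animals 1 to 5. Its difference was 0.44 (SE 0.21; limma adjusted p = 0.942), 1.00 within slide 1, and 0.29 without unstable animal 2. Fas ligand (FASLG) averaged 7.21 ± 0.19 in unstable and 7.02 ± 0.09 in stable animals (SD, n = 5 each), a difference of 0.19 that was 0.086 within slide 1. Unstable animal 2, first for 3 receptors, also had the highest GZMK value, which was singled out after the values were seen. The other effector genes named here were highest elsewhere, GNLY in unstable animal 3 and FASLG in unstable animal 5.

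Cytokine receptors and transcription factors of NK cells had higher means in unstable animals for 12 of 21 measured, with a median difference of 0.026 log2 units, and limma called 0. ID2, a transcriptional regulator needed for NK cell development, averaged 10.93 ± 0.07 in unstable and 10.74 ± 0.22 in stable animals (SD, n = 5 each), a difference of 0.19 that was -0.014 within slide 1. STAT4, which relays interleukin signals to interferon gamma, differed by 0.26 (SE 0.16), and by -0.083 within slide 1. IL2RB, the shared receptor chain for the cytokines that maintain NK cells, differed by 0.10 (SE 0.061), and by 0.029 within slide 1. The unadjusted limma p was under 0.05 for 2 of the 21 genes, against 5.13% of all rows: IL12RB2, lower, and IL12B, higher, both under background on every array and named after their values were seen.

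**Figure D4:**
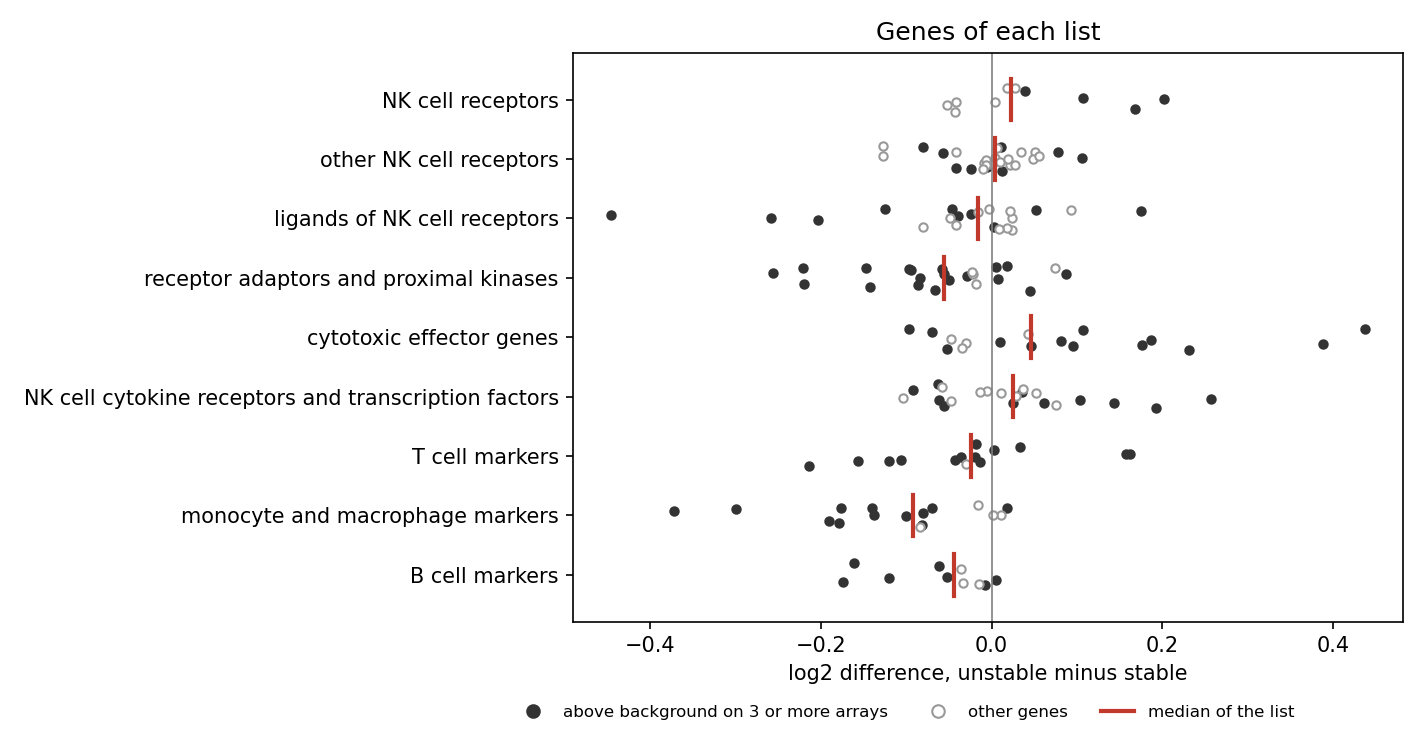
Log2 difference (horizontal axis), unstable minus stable, of every measured gene in the receptor list, the lists around it and 3 lists of other cell types, filled for genes above background on at least 3 arrays, with a red bar for the list median. Open symbols mark genes above background on fewer arrays. The medians run from -0.092 for monocyte and macrophage markers to 0.046 for cytotoxic effector genes.

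Markers of other cells that carry these receptors were set beside them. The mean level of the 14 measured T cell markers ranged from 8.48 to 9.01 log2 units in unstable animals and from 8.50 to 8.99 in stable animals, and it was lowest of all in unstable animal 2. Of these markers 4 had higher and 10 lower means in unstable animals, and CD8A averaged 10.29 ± 0.45 in unstable and 10.40 ± 0.27 in stable animals (SD, n = 5 each). Whether CD8A is limited to T cells in macaques was not tested, so it is not read as separate from NK cells. The mean level of 16 monocyte and macrophage markers, 12 of them above background on at least 3 arrays, ranged from 8.43 to 8.73 in unstable and from 8.30 to 9.08 in stable animals, and 13 of the 16 had lower means in unstable animals. B cell markers ranged from 8.80 to 9.10 in unstable and from 8.74 to 9.12 in stable animals, and 9 of the 10 had lower means in unstable animals. Plasma cell markers lay between 8.18 and 8.25 in unstable and between 8.09 and 8.50 in stable animals, with 9 of 10 means lower in unstable animals. Among them SSR4 differed by -0.21 (SE 0.068; limma adjusted p = 0.931) and IGJ by 0.056. Adipocyte markers lay between 7.44 and 7.87 in unstable and between 7.39 and 7.74 in stable animals, with 5 means higher in unstable animals and 3 lower. The mean level of 14 neutrophil markers, 7 of them above background on at least 3 arrays, was 7.248 to 7.298 in unstable and 7.299 to 7.813 in stable animals. These ranges nearly touched. Taken singly, 0 of the 14 genes separated the groups without overlap, against 0.838% of all rows. Means were higher in unstable animals for 5 of the 14 and lower for 9. S100A9, a calcium-binding protein of neutrophils and monocytes, read 8.40, 7.66, 8.24, 8.44 and 7.92 in unstable animals 1 to 5, and 8.16, 12.06, 10.87, 8.66 and 8.38 in stable animals 1 to 5. Its difference of -1.49 (SE 0.69; limma adjusted p = 0.942) came with high values in stable animals 2 and 3 and was -0.28 within slide 1, while that of MMP9 was -0.057. CSF3R, the receptor of the neutrophil growth factor, differed by -0.41 (SE 0.15; limma adjusted p = 0.942), and was named after its values were seen. It was the only gene of this list with an unadjusted limma p under 0.05, against 5.13% of all rows. The mean level of 10 erythroid markers, 6 of them above background on no array, ranged from 7.51 to 7.77 in unstable and from 7.68 to 7.91 in stable animals, and 9 of the 10 had lower means in unstable animals. The hemoglobin chain HBA2 read 11.18, 10.21, 10.93, 10.98 and 10.64 in unstable animals 1 to 5, and 10.87, 11.69, 11.83, 12.15 and 12.12 in stable animals 1 to 5. The groups overlapped through stable animal 1 alone. Its difference was -0.94 (SE 0.25; limma adjusted p = 0.918), and -1.34 within slide 1, and that of HBB was -0.83 (SE 0.23; limma adjusted p = 0.918), and -1.12 within slide 1. On the deposited scale these differences were larger than those of the 4 receptors above background, which ran from 0.039 to 0.20. The receptors lie much nearer to background than the globins, so these sizes are not directly comparable. With normexp and quantile scaling the 4 receptors ran from 0.073 for NCR3 to 0.53 for KLRB1, and HBA2 was at -0.96. NCAM1 (CD56), a defining marker of human NK cells, was above background on no array, and it was singled out after its values were seen. Whether NCAM1 marks NK cells in macaques was not tested, so its low signal is not read as a count of them. The part of the other cell types in the receptor values was not tested.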

How the data were processed

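Lymph node RNA of 10 macaques was measured with 1 Illumina bead array each. The authors deposited probe intensity values without normalization between arrays, made with GenomeStudio per the submitters' processing notes, and a table of log2 values per gene symbol whose normalization is not given in the sources used here. The log2 table was used as deposited. Its rows were matched by value to probes, after the ranks of the intensities were mapped to the authors' log2 scale: of 18622 rows, 14761 equalled 1 probe within 0.002 and 1932 the mean of 2 probes within 0.008. Intensities entered the alternatives only.

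Groups came from the sample titles. A two-sided model without covariates was fitted to all rows with limma (version 3.58.1, functions lmFit and eBayes, under R 4.3.3). The p-values were adjusted by Benjamini-Hochberg against a limit of 0.05. The fit was also run on simulated independent values without slide or age effects, which cannot speak to the tie of slide and age label with social condition. Intervals are unadjusted 95% intervals of the fit to the measured values, and the number of arrays limits the precision. Depth has no meaning for arrays. The 14 gene lists, the receptors among them, were chosen with earlier results of these data known. Named genes are the receptors, up to 3 genes of smallest p above background on 3 or more arrays in each NK cell list, and the 2 of highest mean in each marker list, of which some are not described. Alternatives were age label, slide (as a random or fixed block, or only slide 1), replicate block, eBayes with trend, array weights, scalings of the intensities including normexp with an offset of 16, background filters, and each animal left out. Normexp with median scaling and KLRD1 from 1 probe were added after the data were seen. Figures were drawn with matplotlib 3.10.9.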

Additional observations from a re-analysis of the deposited data

Results flagged for a closer look

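In a group of 5 animals, a value was singled out when its gap to the nearest other animal, divided by the range of the group, exceeded 0.71 (Dixon's test). Chance singles out about 1 in 20 groups, and 2 of 82 groups were singled out here, none of them for a receptor. GNLY stood at 8.10 in unstable animal 3, against 7.58 to 7.70 in the other unstable animals. HBB, a globin gene from the erythroid markers, stood at 12.58 in stable animal 1, against 13.04 to 13.22 in the other stable animals.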

How the results depend on the processing

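None of the 10 receptors passed the adjusted threshold under any of 24 alternatives, where the smallest limma adjusted p of a receptor was 0.542. For the 4 receptors above background 90 of 94 differences kept their sign, including every one for KLRB1, KLRD1 and CD160. Part of that count was fixed in advance. The replicate block, eBayes with trend and the background filters cannot change a difference. Slide as a fixed block repeats the value within slide 1. Differences of the 6 receptors under background say nothing about stability, and their values are given for completeness. The sign turned for CD244 with age label as a covariate (-0.0351), median scaling (-0.0003), slide as a random block (-0.004) and without the older unstable animals (-0.0471), for NCR3 with age label (-0.0024) and without the older animals (-0.0004), and for KLRC1 within slide 1 (-0.013, also with slide as a fixed block). With 1 animal left out the differences ran from -0.0232 to 0.0279 for CD244, -0.0084 to 0.0896 for NCR3, -0.0019 to 0.038 for KLRF1, 0.157 to 0.243 for KLRB1, 0.0422 to 0.169 for CD160 and 0.0782 to 0.256 for KLRD1, and no row was called. Within slide 1 and with slide as a fixed block SLAMF7 (0.032), CBL (0.028), ID2 (-0.0143) and STAT4 (-0.0826) also turned. MMP9 turned to 0.0374 with median scaling and 0.0368 with slide as a random block, and ran from -0.2677 to 0.1572 with 1 animal left out. Over all rows, limma called 1 gene, MRPL38, with slide as a fixed block and 1, HSBP1, without the older unstable animals, and 0 otherwise. The count of receptors above background was 4, 3 at 5 SD above the mode, where KLRB1 drops out, and 1 when all 10 arrays were required. Higher means in unstable animals were counted for 7 of 10 receptors without a filter, 4 of 4 above background on at least 3 arrays and 1 of 1 on all 10. KLRB1 passes on 4 unstable arrays and 1 stable array, so the filter partly fixes its direction. The replicate numbers did not pair the animals (correlations of same-numbered animals -0.0607 to 0.00725), and the replicate block left KLRB1 at 0.202 and called 0 genes. The random block had a correlation of -0.0837 and so allowed for no likeness within slides. The causes were not tested. The 6 receptors under background have no usable difference, and signals of KLRB1, NCR3 and CD160 lie near it.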
